A study of Mus musculus with 18 samples.

Results

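Intermediate filaments were followed through 7 genes chosen by symbol: the neurofilament subunits Nefl, Nefm and Nefh, the related neuronal subunits Ina and Prph, and Vim and Nes, which are known from immature and non-neuronal cells. They are 7 of the 47643 genes counted, and all 7 were among the 13771 genes tested. RNA was sequenced from embryonic dorsal root ganglion (eDRG) spot cultures, which are droplets of ganglion cells from CD-1 mouse embryos at E13.5, in mid-gestation, grown with 5-fluorodeoxyuridine (FDU), an agent that kills dividing cells. The control cultures were left uninjured and collected at day in vitro 7. In the others the axons were cut with a blade, and RNA was taken 1, 3, 8, 16 and 24 h later, times given as hours post injury (HPI). There were 3 libraries in each of the 6 groups, and every group had the same strain, embryonic stage, medium and FDU, with no genetic change. By the study's methods the cut was made on that same day in vitro, so the injured cultures would be older than the control by their hours post injury, and time after injury and time in culture cannot be told apart. The labels do not say whether the replicates came from separate litters or platings, so the p-values measure only the spread between these samples. Each library is a mixed culture without a sort.

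Intermediate filaments are rope-like polymers that, unlike actin filaments and microtubules, have no polarity and carry no motors. In axons, the light, medium and heavy neurofilament proteins assemble with alpha-internexin, the product of Ina, and with peripherin, the product of Prph. They set axon calibre and move along the axon by slow transport. Peripherin is the characteristic filament protein of peripheral neurons, vimentin is found in glia, fibroblasts and young neurons, and nestin marks neural stem and progenitor cells.

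The positions of the genes bear on what the counts can separate. In GENCODE vM21 on GRCm38, Nefl (ENSMUSG00000022055.7) lies on the plus strand of chr14:68083863-68089095 and Nefm (ENSMUSG00000022054.11) on the minus strand of chr14:68082590-68124846. The last exon of the transcript Nefm-202 covers 1108 bases of the first exon of Nefl, which is 32.8% of the exon bases of Nefl. No source used here says that the counting used strand, and without strand the reads of the 2 genes in these bases cannot be told apart. Nefh (ENSMUSG00000020396.8) lies on the minus strand of chr11:4938754-4948064, and Ina (ENSMUSG00000034336.3) on the plus strand of chr19:47014698-47025327, where it shares 456 exon bases with Nt5c2 on the opposite strand. Prph (ENSMUSG00000023484.13, chr15:99055174-99058978), Vim (ENSMUSG00000026728.9, chr2:13573927-13582826) and Nes (ENSMUSG00000004891.16, chr3:87971078-87980451) lie on plus strands and share no exon base with another gene.

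RefSeq promoters of GRCm38.p6 were at hand for 4 of the 7 genes, Vim, Nes, Prph and Ina. The stretch from 40 to 11 bases before the RefSeq start of each gene is shown to let the core promoters of Vim and Nes, the genes that passed the test at 24 HPI, be read beside those of Prph and Ina. Capitals mark the TATA box letters TATAAA, and all 4 stretches are on the plus strand. The RefSeq start lies 384 bases inside the GENCODE gene for Vim and 15 inside for Nes, 17 bases before it for Ina, and at the same base for Prph.
Vim, chr2:13574271-13574300: aacagtgtTATAAAagcagcgcccttggcg
Nes, chr3:87971053-87971082: aataccctcgcttcagctcgctgctggaat
Prph, chr15:99055134-99055163: ccgcagggcTATAAAgccgccccgcatcgg
Ina, chr19:47014641-47014670: caaccccgcgccttaaaagccccgcacacc
In these windows Vim and Prph hold the TATA box letters and Nes and Ina do not. Over the whole 300-base promoters, searched on both strands, TATAAA was found in 2 of these 4 and in 13.6% of all 32851 promoters, and the GC box letters GGGCGG were found in Nes, Prph and Ina and in 35.7% of all promoters. The CCAAT letters stood in Vim and in 37.4% of all promoters. The AP-1 letters TGANTCA and the cyclic AMP response element TGACGTCA stood in 0 of the 4 promoters and in 7.81% and 1.79% of all, and a match or its absence describes the letters of these windows only.

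Counts on genes ranged from 9478891 to 23082327 per library. The limit of detection of 3 counts came to between 0.13 and 0.316 counts scaled to the library total (CPM), for counting error only. Residual ribosomal RNA genes took 4.6% of the counts in 16 HPI replicate 1, and between 0.69% and 1.7% in the other libraries. The labelled tissue was checked against its markers: the 9 sensory neuron markers, among them Tubb3 and Avil, summed to between 7400 and 8290 CPM in the control libraries. Those of endothelial cells summed to between 1.55 and 1.78 CPM, and the Schwann cell marker Mag and the myeloid marker Itgam had at most 3 counts in every library. Other markers of these lists were not at 0. In control the satellite glia markers summed to between 130 and 193 CPM. The Schwann cell markers summed to between 92.6 and 118 CPM, with Mbp at 91.0 to 117, and the myeloid markers to between 4.79 and 7.32. All CPM values below were normalised by TMM factors.

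Per length of exon, the control cultures carried peripherin and the neurofilament light subunit at levels near the top of all genes. Prph had 2010 ± 95.5 RPKM (CPM per kilobase of exon, SD, n = 3), rank 10 of 13771 genes, and Nefl had 828 ± 123 RPKM, rank 23. Nefm followed with 334 ± 8.17 RPKM at rank 59, Vim with 141 ± 33.2 at rank 177 and Nefh with 104 ± 20.4 at rank 280. Ina had 37.5 ± 6.39 RPKM at rank 1074. Nes stood far below the others at 0.131 ± 0.0818 RPKM, rank 13558. Between neighbours in this order the 3 control libraries did not overlap, except for Vim and Nefh. There Vim was the higher in 3 of 3 libraries, by a log2 ratio of 0.44 ± 0.22. The level of Nefm depends on the length it is divided by, and over its longest transcript it came to 525 RPKM. That of Vim does so as well, at 229 RPKM over its longest transcript. Divided by only the exon bases shared with no other gene, Nefl came to 1232 RPKM, Nefm to 413 and Ina to 43.7. Over all exon bases, peripherin RNA alone made up 58.3% ± 4.07 of the summed RPKM of the 7 genes.

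**Figure D1:**
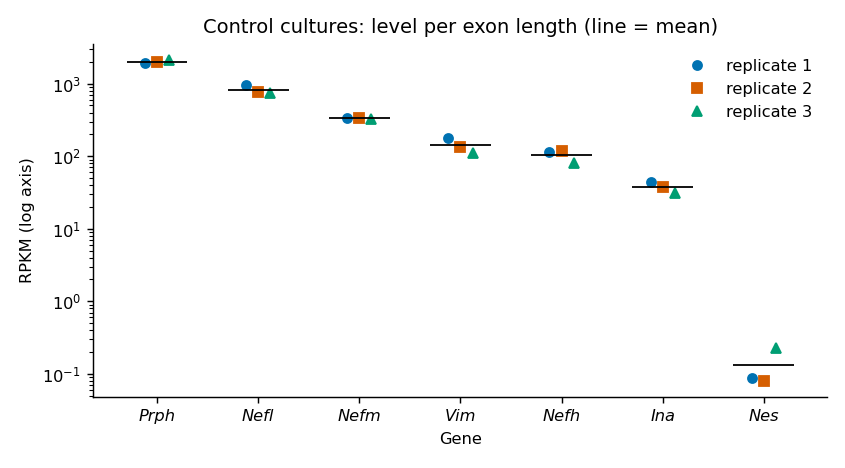
RPKM of each gene in the 3 control libraries on a log axis, with points for replicates and a line for the mean. Prph stands highest at a mean of 2010 and Nes lowest at 0.131, and Vim and Nefh are the only neighbours whose points overlap.

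The time course asked which filament genes change after axotomy. Up to 16 HPI none of the 7 passed the test against control, and at 24 HPI Vim and Nes were higher. Vim rose 1.24-fold and Nes 3.63-fold, and Nes did so from a level close to the limit of detection. Nefm and Nefh had lower means at 24 HPI without passing the test, while Nefl, Ina and Prph kept within 0.12 of control on the log2 scale at that time. Among all genes, 0.385% passed 1 hour post injury and 0.269% at 3 HPI, a share that grew to 7.79% at 8 HPI and 22.1% at 16 HPI and was 15.1% at 24 HPI (the quasi-likelihood test of edgeR, adjusted by Benjamini-Hochberg over 13771 genes, adjusted p under 0.05). With an unadjusted p under 0.05 there were 0, 1, 1 and 2 of the 7 genes at 1, 3, 8 and 16 HPI, beside 12.7%, 14.2%, 21.8% and 33.4% of all genes, and DESeq2 also passed 0 of 7 at each of these times. At 24 HPI, 2 of 7 genes were higher against 6.05% of all genes, 0 of 7 were lower against 9.07%, and 1 of 7, Nes, was over 2-fold higher against 0.639%. Between 3 and 8 HPI, 0 of 7 passed in edgeR, and 0 had an unadjusted p under 0.05, where 2.32% of all genes passed. In a bulk culture, a change in the number of cells of a type and a change in the RNA per cell cannot be told apart.

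**Figure D2:**
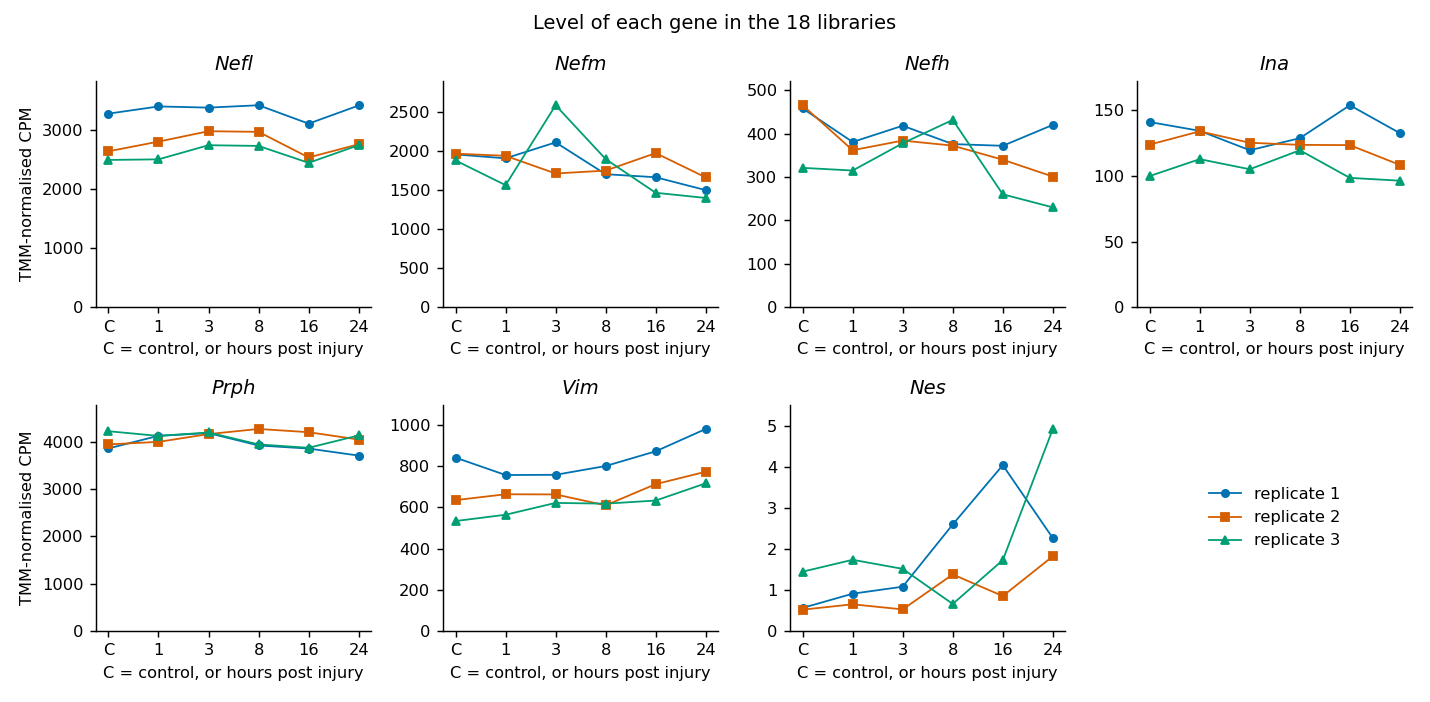
TMM-normalised CPM (vertical axes from 0, a different scale for each gene) of the 7 genes in control (C) and at 1 to 24 hours post injury, with a line for each replicate number. Vim climbs in all 3 replicates to between 717 and 982 at 24 HPI, Nes reaches between 1.82 and 4.94, and the lines of Prph stay between 3715 and 4280.

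Nefl, the subunit on which the other neurofilament proteins assemble, had 3272, 2635 and 2489 CPM in control replicates 1, 2 and 3. It had 3394, 2799 and 2499 CPM at 1 HPI, 3374, 2975 and 2738 at 3 HPI, and 3414, 2964 and 2726 at 8 HPI. It then had 3103, 2531 and 2440 CPM at 16 HPI and 3410, 2754 and 2739 at 24 HPI. Replicate 1 was the highest library in every group and all groups overlapped. Within each replicate, 16 HPI was the lowest value of the 6. Against control the log2 fold changes were 0.049, 0.12, 0.12, -0.054 and 0.087 in order of time, and the lowest adjusted p was 0.0749 at 8 HPI (the quasi-likelihood test of edgeR, adjusted by Benjamini-Hochberg). From 8 to 16 HPI Nefl fell by 0.18 on the log2 scale (SE 0.041, 95% interval -0.27 to -0.083) in 3 of 3 replicates (edgeR's quasi-likelihood test, adjusted p = 0.00467), when 15.4% of all genes passed and 8.1% were lower. Without 16 HPI replicate 1 it was -0.18 (adjusted p = 0.0139 by the same test). From 16 to 24 HPI it rose by 0.14 (SE 0.041, 95% interval 0.050 to 0.23) in 3 of 3 replicates (adjusted p = 0.0279 by the same test), when 9.83% of all genes passed and 3.65% were higher. Over any time point Nefl also passed (adjusted p = 0.00744 by the same test, where 30.4% of all genes did). The step from 16 to 24 HPI lost its call when any of 5 of the 6 libraries compared was left out, with adjusted p between 0.0592 and 0.172 in edgeR, and it kept it without 24 HPI replicate 2 (adjusted p = 0.0273).

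Nefm, the medium subunit, whose long tail is heavily phosphorylated in axons, had 1953, 1963 and 1876 CPM in control. It had 1903, 1935 and 1560 CPM at 1 HPI, 2107, 1709 and 2582 at 3 HPI, and 1700, 1746 and 1893 at 8 HPI. It ended at 1661, 1970 and 1462 CPM at 16 HPI and 1496, 1659 and 1396 at 24 HPI. All 3 libraries of 24 HPI lay below all 3 of control, whereas replicate 3 of 3 HPI stood above every other library. At 24 HPI the log2 fold change was -0.35 (SE 0.15, 95% interval -0.69 to -0.0079), lower in 3 of 3 replicates, and it did not pass the test over all genes (edgeR's quasi-likelihood test, unadjusted p = 0.0446, adjusted p = 0.164). Groups that did not overlap were seen for 16.4% of all genes at 24 HPI and for 2 of the 7, Nefm and Nes. With the control and 24 HPI libraries fitted alone Nefm passed, at -0.35 (adjusted p = 1.71e-05), and in the other 14 alternatives it did not.

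Nefh, the heavy subunit, which enters the filament late and is typical of large myelinated axons, had 458, 465 and 321 CPM in control. The values were 381, 362 and 315 CPM at 1 HPI, 418, 384 and 378 at 3 HPI, and 376, 372 and 432 at 8 HPI. They were 372, 340 and 260.0 CPM at 16 HPI and 420, 301 and 230 at 24 HPI. Replicate 3 was the lowest library in every group but 8 HPI, where it was the highest, and every group overlapped control. Against control, Nefh differed by -0.36 on the log2 scale at 16 HPI (SE 0.16, 95% interval -0.72 to 0.0063) and by -0.40 at 24 HPI (SE 0.16, 95% interval -0.76 to -0.039), each time lower in 3 of 3 replicates. Neither passed the test over all genes (edgeR's quasi-likelihood test, adjusted p = 0.154 and 0.133). With only the compared groups fitted both passed (adjusted p = 0.000315 and 0.00216), and without 24 HPI replicate 1 the value at 24 HPI was -0.59 (adjusted p = 0.0331). Between 8 and 16 HPI the groups did not overlap, as for 17.7% of all genes, and the difference of -0.31 did not pass (edgeR's quasi-likelihood test, adjusted p = 0.243).

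Ina encodes alpha-internexin, a subunit that young neurons make early. It had 141, 124 and 99.9 CPM in control, 134, 134 and 113 at 1 HPI, and 120, 125 and 105 at 3 HPI. It had 129, 124 and 120 CPM at 8 HPI, 154, 124 and 98.5 at 16 HPI, and 133, 108 and 96.4 at 24 HPI. All groups overlapped control, and replicate 3 was the lowest library in each group. The log2 fold changes against control ran from -0.11 (95% interval -0.29 to 0.060) at 24 HPI to 0.071 (95% interval -0.10 to 0.24) at 1 HPI, and the lowest adjusted p of the 5 was 0.366 (edgeR's quasi-likelihood test).

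Prph was the most abundant and the steadiest of the 7 genes. It had 3867, 3953 and 4232 CPM in control, 4135, 4006 and 4132 at 1 HPI, and 4192, 4171 and 4205 at 3 HPI. It had 3930, 4280 and 3952 CPM at 8 HPI, 3864, 4211 and 3880 at 16 HPI, and 3715, 4055 and 4143 at 24 HPI. All 18 libraries lay between 3715 and 4280 CPM and each group overlapped control. The log2 fold changes ran from -0.017 to 0.061, the 95% intervals reached from -0.12 at the lowest to 0.16 at the highest, and the lowest adjusted p was 0.567 (edgeR's quasi-likelihood test). At 8, 16 and 24 HPI the sign of these small values turned with upper-quartile scaling.

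Vim had 842, 635 and 534 CPM in control, 758, 664 and 564 at 1 HPI, and 759, 663 and 622 at 3 HPI. It had 801, 610 and 618 CPM at 8 HPI, 873, 713 and 633 at 16 HPI, and 982, 774 and 717 at 24 HPI. Replicate 1 was the highest library in every group, so the groups overlapped, but within each replicate the 24 HPI library was the highest of the 6. At 16 HPI the log2 fold change was 0.15 (SE 0.056, 95% interval 0.027 to 0.28), higher in 3 of 3 replicates without passing the test (edgeR's quasi-likelihood test, adjusted p = 0.054). At 24 HPI Vim rose by 0.31 (SE 0.056, 95% interval 0.18 to 0.43), a fold of 1.24 (1.13 to 1.35), in 3 of 3 replicates (adjusted p = 0.000533 by the same test). The call held in 14 of 15 alternatives, among them each library left out in turn (0.24 to 0.38), and was lost without the replicate number as a block, where the value was 0.30 (adjusted p = 0.54). Over any time point Vim passed as well (adjusted p = 0.000438 by edgeR's quasi-likelihood test).

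Nes was counted 11, 7 and 30 times in the control libraries, which is 0.559, 0.516 and 1.45 CPM. There were 17, 13 and 28 counts at 1 HPI, 20, 12 and 28 at 3 HPI, and 43, 13 and 13 at 8 HPI. There were 57, 15 and 32 counts at 16 HPI, and 37, 39 and 108 at 24 HPI, or 2.27, 1.82 and 4.94 CPM. The 24 HPI libraries all lay above the control libraries, with replicate 3 far above the others. Nes rose from 0.840 ± 0.525 to 3.01 ± 1.68 CPM (SD, n = 3), a log2 fold change of 1.86 (SE 0.55, 95% interval 0.64 to 3.08) or 3.63-fold (1.56 to 8.43), in 3 of 3 replicates (edgeR's quasi-likelihood test, adjusted p = 0.0373). The call was kept in 1 of 6 fits that left out a library, without 24 HPI replicate 1 (2.23, adjusted p = 0.0199). It was lost without control replicate 1 (1.46, adjusted p = 0.157), 2 (1.88, 0.0882) or 3 (2.42, 0.0577) and without 24 HPI replicate 2 (1.84, 0.0829) or 3 (1.40, 0.200), all in edgeR. At 16 HPI the value of 1.31 did not pass (edgeR's quasi-likelihood test, adjusted p = 0.145) and was 0.62 without 16 HPI replicate 1, the library with the most residual ribosomal RNA. Unlike Nefl and Vim, Nes did not pass over any time point (edgeR's quasi-likelihood test, adjusted p = 0.0825).

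**Figure D3:**
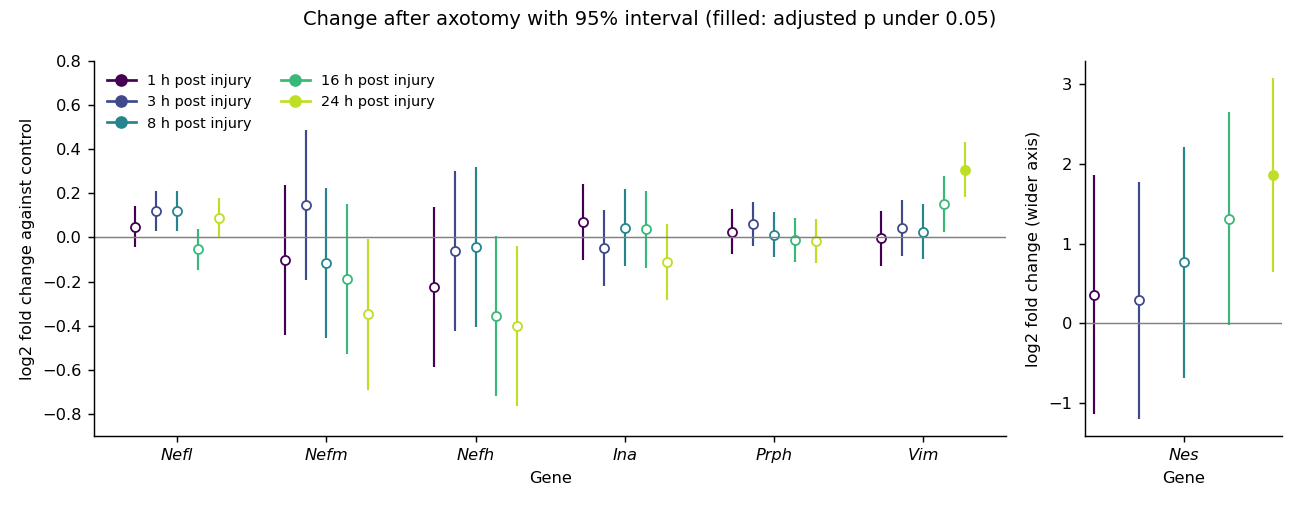
Log2 fold change of each gene against control at the 5 time points, with 95% intervals built from the edgeR fit on 10 degrees of freedom and filled points where the adjusted p was under 0.05. The filled points are Vim (0.31) and Nes (1.86, on its own wider axis), both at 24 HPI, and the intervals of Nefm and Nefh are wider than those of Nefl and Prph.

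Markers of other cell types were read at 24 HPI beside Vim and Nes. Among all genes 6.05% were higher and 9.07% lower at that time. The 9 satellite glia markers summed to between 130 and 193 CPM in control and between 128 and 166 at 24 HPI, mostly from S100b and Glul, which neurons also express, and 0 of 7 tested passed as higher and 1, S100b, as lower (-0.26). The fibroblast markers summed to between 4.87 and 22.9 CPM in control and 6.12 and 32.5 at 24 HPI, where 1 of 6 tested passed as higher, Dcn, a matrix proteoglycan, at 2.22 (SE 0.27, adjusted p = 5.18e-06 in edgeR). The 8 myeloid markers summed to between 4.79 and 7.32 CPM in control and 7.86 and 8.69 at 24 HPI, and 1 of 3 tested passed, the lysosomal gene Cd68 at 0.93 (adjusted p = 0.0129 in edgeR). The 6 markers of neural crest and progenitors summed to between 5.29 and 8.87 CPM in control and 6.98 and 12.4 at 24 HPI, and 1 of 2 tested passed, Msi1, which encodes an RNA-binding protein of progenitors, at 0.47 (adjusted p = 0.00757 in edgeR). The 6 genes of cell division summed to between 3.10 and 4.24 CPM in control and 4.77 and 8.08 at 24 HPI, and 1 of 4 tested passed, Top2a, a topoisomerase of dividing cells, at 1.44 (adjusted p = 0.00747 in edgeR). The Schwann cell markers summed to between 92.6 and 118 CPM in control and 89.9 and 106 at 24 HPI, nearly all from Mbp, and 0 of 2 tested passed in edgeR. Those of endothelial cells summed to between 1.55 and 1.78 CPM in control and between 1.31 and 2.15 at 24 HPI, too low to be tested. The sensory neuron markers summed to between 7400 and 8290 CPM in control and 6750 and 7400 at 24 HPI, where 2 of 9 were higher and 2 lower. Tubb3, the neuronal tubulin, fell by 0.37 on the log2 scale (adjusted p = 9.15e-06 in edgeR), whereas Isl1 and Pou4f1 (the latter named after its value was seen), transcription factors of sensory neurons, rose by 0.26 and 0.20 (adjusted p = 0.00531 and 0.00485 in edgeR). With a library left out in turn, Dcn, Msi1 and Tubb3 passed at 24 HPI in 6 of 6 fits. Top2a, S100b and Isl1 passed in 4 of 6 and Cd68 in 3 of 6. The part of the other cell types in the levels of Vim and Nes was not tested.

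The proportions of the subunits were compared within each library as ratios of RPKM, since neurofilaments are polymers of Nefl with the other subunits. The Nefm/Nefl ratio was 0.349, 0.435 and 0.441 in control replicates 1, 2 and 3 and 0.257, 0.352 and 0.298 at 24 HPI, lower in 3 of 3 replicates by a mean log2 difference of -0.44 ± 0.13. The Nefh/Nefl ratio averaged 0.126 ± 0.0211 in control and 0.0893 ± 0.0168 at 24 HPI, lower in 3 of 3 replicates by -0.50 ± 0.27. The Ina/Nefl ratio went from 0.0453 ± 0.00359 to 0.0394 ± 0.00237 and the Prph/Nefl ratio from 2.47 ± 0.442 to 2.30 ± 0.395, with log2 differences of -0.20 ± 0.054 and -0.10 ± 0.072, again in 3 of 3 replicates. At 24 HPI each of the other neuronal subunits thus stood lower relative to Nefl than in the control of the same number. Nefl itself stood 0.087 higher on the log2 scale, in 3 of 3 replicates, without passing the test. Taken alone, Nefm, Nefh and Ina were also lower in 3 of 3 replicates, and Prph (-0.017) in 2 of 3. The 4 differences share Nefl and are not independent. Each of these 4 differences had an exact permutation p of 0.25 with the signs of 3 replicates, the smallest this design allows, so none can pass 0.05, and 20 ratios were compared. At 16 HPI the Nefh/Nefl difference was -0.30 ± 0.088 in 3 of 3 replicates, and that of Nefm/Nefl was -0.14 ± 0.20 with replicate 2 the other way, while Ina/Nefl was higher in 3 of 3 by 0.087 ± 0.10. At the earlier times Nefm/Nefl was lower in 3 of 3 replicates at 1 HPI (-0.16 ± 0.10) and 8 HPI (-0.24 ± 0.11), Nefh/Nefl at 1 HPI (-0.27 ± 0.21), Ina/Nefl at 3 HPI (-0.17 ± 0.11) and Prph/Nefl at 8 HPI (-0.11 ± 0.11). The level of a ratio, unlike its change within a replicate, depends on the exon length used. For Nefm/Nefl in control it was 0.642 over the longest transcripts and 0.34 over exon bases shared with no other gene. Over those unshared bases Nefh/Nefl was 0.0845, Ina/Nefl 0.0354 and Prph/Nefl 1.66.

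**Figure D4:**
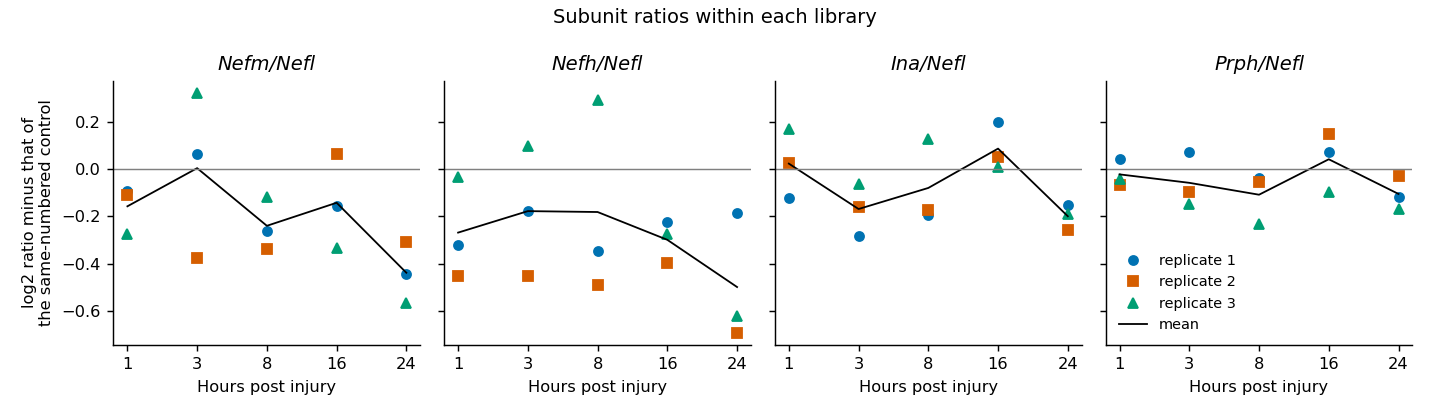
Log2 of each subunit's RPKM over that of Nefl, minus the value of the same-numbered control, by hours post injury, with points for replicates and a line for the mean. At 24 HPI all 3 points lie below 0 in each panel, at a mean of -0.44 for Nefm and -0.50 for Nefh.

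Across the 18 libraries, with the mean of each replicate number removed, the log2 CPM of Nefm and Nefh moved together with a Pearson r of 0.632, whereas Nefl and Nefm, whose genes overlap, had an r of 0.075. Nes and Nefh ran opposite at -0.723, and Vim and Nes had an r of 0.482. The genes most like Nefl were Fbxw2 (0.925), Vapb (0.918) and Nudt4 (0.9), and those most like Nefm were Prmt1 (0.941), Sh3gl2 (0.936) and Acot7 (0.927). Nefh was closest to Dmd (0.928), Hpcal1 (0.91) and Atrnl1 (0.902), Ina to Isyna1 (0.826), 3110009E18Rik (0.816) and Gm14168 (0.794), and Prph had Matk (0.819) among its nearest. Vim was closest to Hspb1 (0.905), a small heat shock protein, followed by Neurl1a (0.887) and Supt4a (0.875). Nes was closest to Angptl2 (0.904), Erbb3 (0.884), a receptor of glial cells, and Ttc33 (0.874). These values describe 18 libraries that share their groups and were picked as the highest of 13771 genes, and they carry no test.

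Genes that act on intermediate filaments were read from fixed lists. Of 21 other cytoplasmic filament genes, among them keratins, desmin and Gfap, 7 were expressed enough to be tested. Synm, which encodes the large partner protein synemin, was lower at 16 HPI (-0.23, SE 0.054, adjusted p = 0.00256) and 24 HPI (-0.20, SE 0.054, adjusted p = 0.0138). Krt222 was higher at 8 HPI (0.25, adjusted p = 0.0488) and Iffo2 at 16 HPI (0.32, adjusted p = 0.00691), all by edgeR's quasi-likelihood test. The call of Krt222 was lost with a correction of the counts for GC content and length (0.19, adjusted p = 0.112 in edgeR) and in 5 of 6 fits that left out a library. That of Synm was kept in 6 of 6 such fits at 16 HPI and in 3 of 6 at 24 HPI. Of the 3 nuclear lamins, Lmna was higher at 16 HPI (0.17, adjusted p = 0.00931 in edgeR) and no other gene of these 2 lists passed in any comparison with control.

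Hspb1 and Hspb8, which encode small heat shock proteins, rose. Another such gene, Cryab, had 1 to 28 counts a library and was too low to be tested. Of 8 tested genes of filament turnover and chaperones, 3 were higher and 1 lower at 24 HPI, beside 6.05% and 9.07% of all genes, with a median of 0.033 beside 0.0020 over all genes. Hspb1 went from 2.20 ± 0.861 to 5.83 ± 1.90 CPM (SD, n = 3), a log2 fold change of 1.41 (SE 0.18, adjusted p = 5.49e-06 in edgeR), and Hspb8 from 89.9 ± 18.7 to 138 ± 20.0 CPM, or 0.63 (SE 0.071, adjusted p = 5.18e-06 in edgeR). Hspb8 already passed at 8 HPI (0.39, adjusted p = 0.00218 in edgeR), and both were higher in 3 of 3 replicates at 16 HPI. The other higher gene, named after its value was seen, was the protease gene Capn2 (0.15, adjusted p = 0.0414 in edgeR). Its relative Capn1 was lower at 16 HPI (-0.23, adjusted p = 0.0106 in edgeR).

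Genes of filament transport and phosphorylation were lower where they passed. Of the 7 motor genes, 1 was lower at 8 HPI, 4 at 16 HPI and 3 at 24 HPI, and 0 were higher at any time, with a median of -0.17 at 24 HPI. Among all genes 3.96%, 11.5% and 9.07% were lower at these 3 times. Dync1h1, the dynein heavy chain that drives retrograde transport, went from 1842 ± 263 to 1161 ± 127 CPM at 24 HPI (log2 fold change -0.66, SE 0.083, adjusted p = 5.54e-05 in edgeR). The myosin gene Myo5a stood at -0.28 and Kif5a, a kinesin that carries neurofilaments outward, at -0.19 (adjusted p = 0.000327 and 0.0049 in edgeR). Of 14 kinases and phosphatases of filament proteins, 1, 4 and 2 were lower at 8, 16 and 24 HPI and 0 were higher, and the share at 24 HPI, 2 of 14, is near that of all genes. With the GC and length correction 1 was higher at 16 HPI. Camk2a fell at all 3 times, by 0.66 on the log2 scale at 24 HPI (adjusted p = 0.000155 in edgeR), and Cdk5r2, an activator of the tail kinase Cdk5, by 0.35 at 16 HPI and 0.23 at 24 HPI (adjusted p = 0.0012 and 0.0357 in edgeR). With a library left out in turn, Camk2a passed in 0 of 6 fits at 8 HPI and Dync1h1 in 2 of 6. At 16 HPI both and Cdk5r2 passed in 6 of 6. At 24 HPI Camk2a and Dync1h1 passed in 6 of 6 and Cdk5r2 in 1 of 6.

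Of 6 cytolinkers, the giant proteins that tie filaments to actin and microtubules, 3 were expressed enough to be tested. All 3 were lower at 24 HPI, beside 9.07% of all genes. Plec stood at -0.48, Macf1 at -0.39 and Dst at -0.37 (adjusted p = 0.0343, 0.00187 and 0.00604 by edgeR's quasi-likelihood test). With a library left out in turn, Plec passed at 24 HPI in 1 of 6 fits, and Macf1 and Dst in 6 of 6. Dst had been lower at 8 and 16 HPI too (-0.29 and -0.24), passing in 2 of 6 such fits at each time. With the GC and length correction Dst did not pass at either time, and at 24 HPI the values of Plec, Macf1 and Dst were -0.28, -0.11 and -0.041 and none passed (adjusted p = 0.115, 0.119 and 0.597 in edgeR). Under the same correction Hspb1, Hspb8, Dync1h1, Myo5a, Kif5a, Camk2a and Cdk5r2 still passed at 24 HPI, whereas Synm did not (-0.14, adjusted p = 0.0907). Without the replicate block, Dync1h1 was the only gene of these lists to pass at 24 HPI (-0.67, adjusted p = 0.0459 in edgeR), Cdk5r2 the only one at 16 HPI (-0.35, adjusted p = 0.0272), and 0 passed at 1, 3 and 8 HPI.

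**Figure D5:**
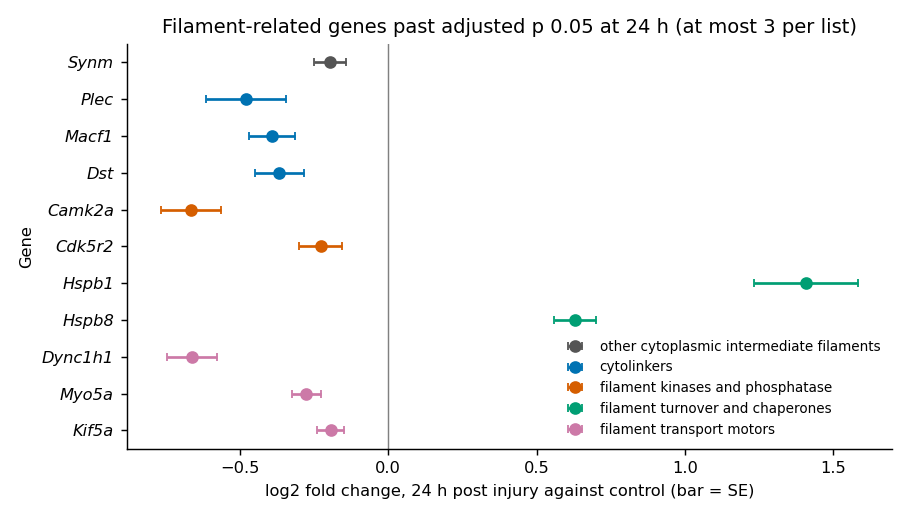
Log2 fold change at 24 HPI against control, with SE, of filament-related genes named in the text that passed an adjusted p of 0.05, at most 3 of each list. Hspb1 at 1.41 and Hspb8 at 0.63 lie above 0, and the cytolinkers, kinases, motors and Synm lie below.

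Large-diameter sensory neurons are the richest in neurofilaments and small-diameter neurons in peripherin, so genes of both classes were read beside the members. Of 6 tested genes of large-diameter neurons, 2 were lower at 16 HPI, the neurotrophin-3 receptor Ntrk3 (-0.73, adjusted p = 0.0149) and the transcription factor Etv1 (-0.47, adjusted p = 7.39e-06), and 0 passed at 24 HPI by edgeR's quasi-likelihood test, or 1 higher and 1 lower with the GC and length correction. Of 8 tested genes of small-diameter neurons, 1 was lower at 1 HPI, 1 was higher and 1 lower at 8 HPI, and 1 was higher and 3 lower at 16 HPI. Among all genes 0.269% were lower at 1 HPI, 3.83% higher and 3.96% lower at 8 HPI, and 10.6% higher and 11.5% lower at 16 HPI. At 24 HPI 0 were higher and 3 lower, beside 6.05% and 9.07% of all genes. Among the 3 were the sodium channel genes Scn10a (-0.47, adjusted p = 5.18e-06) and Scn11a (-0.35, adjusted p = 0.0279), both in edgeR. With a library left out in turn, Scn10a passed at 24 HPI in 6 of 6 fits and Scn11a in 2 of 6. At 16 HPI Etv1 passed in 6 of 6 and Ntrk3 in 3 of 6. The gene that was higher at 16 HPI was Runx1, a transcription factor of small neurons, at 1.35 from 1.81 ± 0.628 CPM (adjusted p = 1.6e-05 in edgeR). Without the replicate block 0 genes of either list passed at any time in edgeR. The medians of the lists at 24 HPI were -0.15 for each class, beside 0.0020 over all genes.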

How the data were processed

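The authors deposited raw counts of reads per gene for each of the 18 libraries. By the labels, total RNA was depleted of rRNA and made into cDNA with a SMARTer kit, and the submitters' processing notes name FastQC, STAR, HTSeq, DESeq2 and mm10. The paper's methods name cutadapt, STAR and featureCounts with a GENCODE annotation. Between 25.2% and 33.2% of all counts lay on 5 entries that name no gene and were left out. The counts carry no strand information in the sources used here.

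Gene names came from GENCODE vM21, which named 47224 of 47643 identifiers. In R 4.3.3, edgeR 4.0.16 tested genes over 1 CPM in at least 3 libraries by its quasi-likelihood test with TMM factors, with terms for time point and replicate number, Benjamini-Hochberg adjustment over 13771 genes and two-sided tests. DESeq2 1.42.0 was an alternative. Fits were tested on simulated data. Python 3.11.15 was used for the tables and figures. Every comparison with control shares the same 3 control libraries.

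The replicate number was kept as a block because the study's own comparisons followed a batch correction. Libraries with the same number also deviated together from their group means. The 45 pairs with a shared number correlated across genes with r between 0.484 and 0.765, and pairs with different numbers between -0.577 and -0.042. Deviations from a group mean sum to 0, so the negative values follow from the positive ones and add nothing to them.

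RPKM is the normalised CPM per kilobase of all exons. The ratios had an exact permutation test that exchanges signs over 3 replicates. The genes named are the 7 members, the 3 genes most correlated with each, and of each list at each time at most the 3 largest changes past an adjusted p of 0.05. Listed markers were named by the same limit or as defining markers at or near 0. The members and lists were chosen with earlier results of these data known. Some genes and other items that these rules reach are not reported here.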

Additional observations from a re-analysis of the deposited data

Results flagged for a closer look

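The change of Nefl against control differed between neighbouring time points, which the fit over all libraries tested directly. Its change at 16 HPI was lower than that at 8 HPI by a log2 difference of -0.18 (edgeR's quasi-likelihood test, adjusted p = 0.00467), lower in 3 of 3 replicates. Its change at 24 HPI was higher than that at 16 HPI by 0.14 (adjusted p = 0.0279), higher in 3 of 3 replicates. With the 2 compared groups fitted alone the adjusted p was 0.0766 and 0.0985 in edgeR.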

How the results depend on the processing

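The number of the 7 genes past an adjusted p of 0.05 at 24 HPI, 2 by the reported edgeR fit, was 1 with at least 10 counts over all libraries as the filter, 1 with over 1 CPM in all 18 libraries, where Nes was not tested, 4 with the 2 compared groups alone, and between 1 and 3 with a library left out. At 16 HPI, where it was 0, it was 1 with upper-quartile factors, 1 with the filter of 10 counts, 1 with the 2 groups alone and between 0 and 1 with a library left out. At 1 HPI it was 1 with the 2 groups alone. From 8 to 16 HPI the count of 1 became 2 with upper-quartile factors and 0 with the 2 groups alone, and from 16 to 24 HPI it became 0 with the filter of 10 counts, 2 with the GC and length correction, 0 with the 2 groups alone and between 0 and 1 with a library left out. Without the replicate block the count was 0 at 24 HPI, 0 from 8 to 16 HPI, 0 from 16 to 24 HPI and 0 over any time point. The cause was not tested.

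Directions turned only for values of genes that did not pass. With upper-quartile factors Vim at 1 HPI was 0.0065 and Prph was -0.0051, 0.011 and 0.014 at 8, 16 and 24 HPI, and with the filter of 10 counts Vim at 1 HPI was 0.0040. With a library left out, the ranges that crossed 0 at 1 HPI were -0.0070 to 0.065 for Prph, -0.068 to 0.061 for Vim and -0.056 to 0.91 for Nes. At 3 HPI they were -0.062 to 0.33 for Nefm, -0.16 to 0.039 for Nefh, -0.096 to 0.025 for Ina, -0.022 to 0.11 for Vim and -0.12 to 0.84 for Nes. At 8 HPI they were -0.26 to 0.087 for Nefh, -0.047 to 0.11 for Ina, -0.022 to 0.050 for Prph and -0.038 to 0.092 for Vim. At 16 HPI they were -0.061 to 0.11 for Ina and -0.047 to 0.026 for Prph, and at 24 HPI -0.047 to 0.020 for Prph. Of the ratios, without a replicate, Nefm/Nefl at 3 HPI ran from -0.15 to 0.19, Ina/Nefl at 1 HPI from -0.049 to 0.098, Prph/Nefl at 1 HPI from -0.054 to 0.0016 and at 16 HPI from -0.011 to 0.11.

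With the GC and length correction the median of the cytolinkers was -0.10, -0.015, -0.057, 0.0084 and -0.11 at 1, 3, 8, 16 and 24 HPI, that of the kinases 0.0077, -0.049 and 0.014 at 1, 16 and 24 HPI, that of turnover and chaperones 0.034, 0.087, 0.083 and 0.11 at 3, 8, 16 and 24 HPI, and that of the motors -0.0065 and -0.0032 at 1 and 8 HPI. DESeq2 size factors, the DESeq2 test and leaving out residual rRNA and mitochondrial genes moved no count of members by over 1.5 times. With 7 to 108 counts a library, Nes has the widest intervals of the 7 genes.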
